A study of Mus musculus with 3 samples.

Results

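The Notch receptors, ligands and effectors described here are 10 mouse genes, found by their symbol in the deposited tables among 47725 genes: Notch1, Notch2, Notch3, Jag1, Jag2, Dll1, Hes1, Hey1, Heyl and Lfng. RNA was sequenced from 3 cultures, with 1 library each, which descend from the mouse embryonic stem cell (mESC) lines BM (Barhl1 mutant), BEM (E3 E-box site mutant) and WT (wild type). Barhl1 encodes a homeodomain transcription factor of hair cells. In all 3, otic progenitors, which give rise to inner ear cell types, were seeded on chicken utricle stroma that could no longer divide. The medium held 25 ng/ml EGF and 1 µM retinoic acid, RNA was taken on day 9, and the cells are labelled as hair cell-like. The kind of mutation in BM, the number of clones behind each line and the handling of chicken reads were not stated. The library totals behind the FPKM values were 20111794 reads for BM, 23813123 for BEM and 21555823 for WT.

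Notch receptors sit in the cell membrane and are activated by ligands on a neighbouring cell. Activation leads to cleavage of the receptor by ADAM proteases and gamma-secretase, and the freed intracellular part joins the DNA-binding protein RBPJ and a Mastermind coactivator to switch on Hes and Hey repressors. In the inner ear, Jag1 marks the prosensory region and supporting cells, while hair cells carry the ligands Dll1 and Jag2 and restrain their neighbours from becoming hair cells, since Hes and Hey factors repress Atoh1.

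All values are FPKM, reads scaled by gene length and library total. A gene was called higher or lower where it differed at least 2-fold between libraries on the log2(FPKM + 0.5) scale, among the 12875 genes that averaged 1 FPKM or more and are termed measured. For a named gene, the fold is that of the FPKM values themselves, with nothing added. Ranges in brackets after a ratio are 95% intervals (Clopper-Pearson) from whole reads recovered from the FPKM, and they cover counting error only. With 1 library per line, no difference has a replicate check, and no p-value was calculated here. FDR values given below are those of the authors' deposited table.

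The hair cell markers were uneven, with some expressed and others at or near 0. Atoh1, the factor that sets off hair cell formation, had 236.5 FPKM in BM, 240.9 FPKM in BEM and 270.2 FPKM in WT, in values that were not whole reads at any length examined. Only 1 read per library came from Pou4f3, a factor that hair cells need to survive, and Pvalb and Tmc1 were listed at 0 in all 3. Myo7a, an unconventional myosin of hair bundles, had 9.79 FPKM in BM and 9.83 FPKM in BEM, against 0.704 FPKM in WT. Myo6, another hair cell myosin, had 2.04 FPKM in BM and 2.15 FPKM in BEM, against 3.65 FPKM in WT. Espn, an actin-bundling protein, had 0.565 FPKM in BM and 0.503 FPKM in BEM, against 2.08 FPKM in WT.

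The promoter sequences of Lfng and Jag1 are shown because Lfng is a known Notch target and Jag1 was the member with the highest level in both mutants. They were taken from RefSeq (GRCm38.p6) and run 5′ to 3′ on the gene's own strand. Motifs were searched on both strands over the 250 bases before the RefSeq start, and capitals mark the RBPJ core TGGGAA, its longer form CGTGGGAA, which contains the core, and the E-box CAGCTG. Of those 250 bases, the ones inside the gene as GENCODE annotates it are left out, 21 for Lfng and 124 for Jag1.
Lfng, chr5:140607091-140607319, plus strand: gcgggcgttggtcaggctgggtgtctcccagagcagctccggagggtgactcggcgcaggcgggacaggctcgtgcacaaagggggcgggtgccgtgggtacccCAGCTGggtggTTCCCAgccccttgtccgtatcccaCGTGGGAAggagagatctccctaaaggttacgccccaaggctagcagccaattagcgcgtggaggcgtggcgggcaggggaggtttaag
Jag1, chr2:137116645-137116770, minus strand: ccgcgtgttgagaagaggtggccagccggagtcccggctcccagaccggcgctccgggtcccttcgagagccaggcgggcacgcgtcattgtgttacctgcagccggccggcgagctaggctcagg
The Lfng window held the RBPJ core at 2 places, 1 of them within the longer form, and CAGCTG at 1 place. Over all 32851 promoter windows of the same length, 21.6% held TGGGAA, 0.636% held CGTGGGAA and 13.0% held CAGCTG. The Jag1 window held no RBPJ core, and its CAGCTG, starting 82 bases before the RefSeq start, lies in the part left out. The Jag2 window, not shown because all 250 of its bases are inside the gene in GENCODE, held none of these letters. It was 87.2% G and C with 54 CpG dinucleotides, against 57.2% and 20 for Jag1 and a median of 52.4% and 6 over all windows. Of the 10 genes, 7 were matched in 8 windows, since Dll1 has 2, and Hes1, Hey1 and Heyl were not matched. None of the windows of Notch1, Notch2, Notch3 and Dll1 held TGGGAA, and 1 of those of Dll1 held CAGCTG. All 250 bases of the Notch1 window and of the other Dll1 window lie inside the gene in GENCODE.

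The order of the members' levels differed between the mutant cultures and WT. In BM and in BEM the order of levels per length was the same, from Jag1 through Hes1, Notch3, Notch2, Notch1, Lfng, Heyl, Hey1 and Jag2 down to Dll1. In WT, Notch3 was the highest, followed by Notch2, Hes1, Notch1, Jag2, Jag1, Lfng, Hey1, Heyl and Dll1. Neighbours in these orders whose ratio had a counting interval that included 1 were Notch2 and Notch1 in BM, Heyl and Hey1 in BEM, and Notch1 with Jag2, Lfng with Hey1 and Heyl with Dll1 in WT. Jag1 lay above 90.9% of the measured genes in BM, 91.1% in BEM and 24.7% in WT. Jag2 lay above 2.36% of them in BM, 1.94% in BEM and 52.5% in WT.

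**Figure D1:**
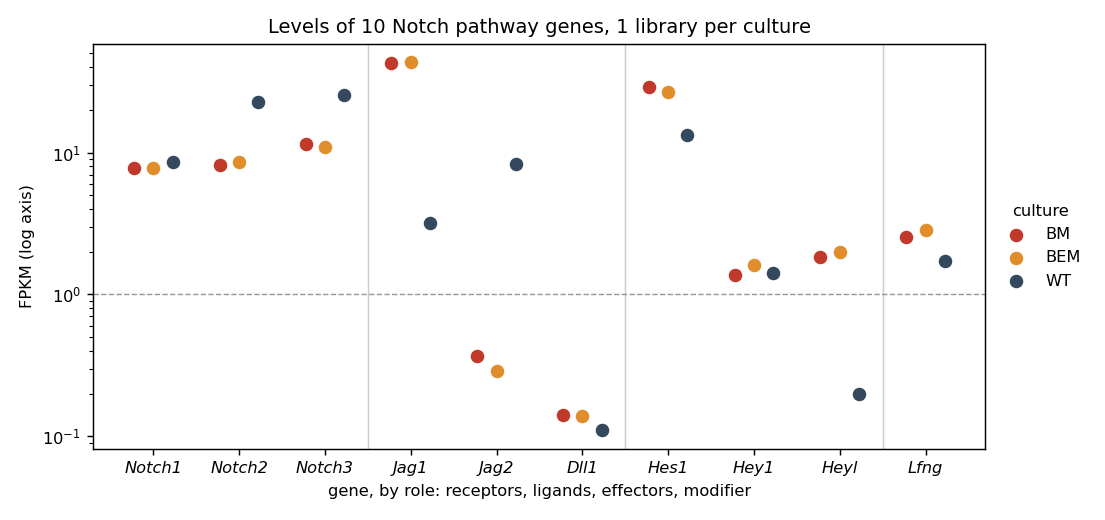
FPKM of the 10 genes on a log axis, grouped by role, with 1 point per culture in the order BM, BEM, WT and a dashed line at 1 FPKM. BM and BEM lie close together for each gene, while WT stands apart for Jag1, Jag2 and Heyl and less so for Notch2, Notch3 and Hes1.

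Of the 9 measured members, 3 were called higher in BM than in WT, against 10.5% of all measured genes, and 3 lower, against 15.3%. In BEM against WT, 2 were called higher, against 10.7% of all measured genes, and 3 lower, against 15.3%. Jag1 and Heyl were the genes called higher in both mutants and Jag2, Notch2 and Notch3 those called lower in both, while Hes1 was called in BM alone, and in both mutants under median-of-ratios or upper quartile scaling. The median log2 ratio of the 9 was -0.04 for BM and 0.13 for BEM, beside -0.08 and -0.07 over all measured genes. Dll1 was too low to be measured. Heyl passed the filter on low values through the mutant libraries and Jag2 through WT, so their counts follow in part from that filter. Both comparisons use the same WT library, and in a bulk culture fewer cells of a type cannot be told apart from less RNA per cell. In the distribution of all measured genes, Jag1 lay in the upper arm and Jag2 in the lower.

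**Figure D2:**
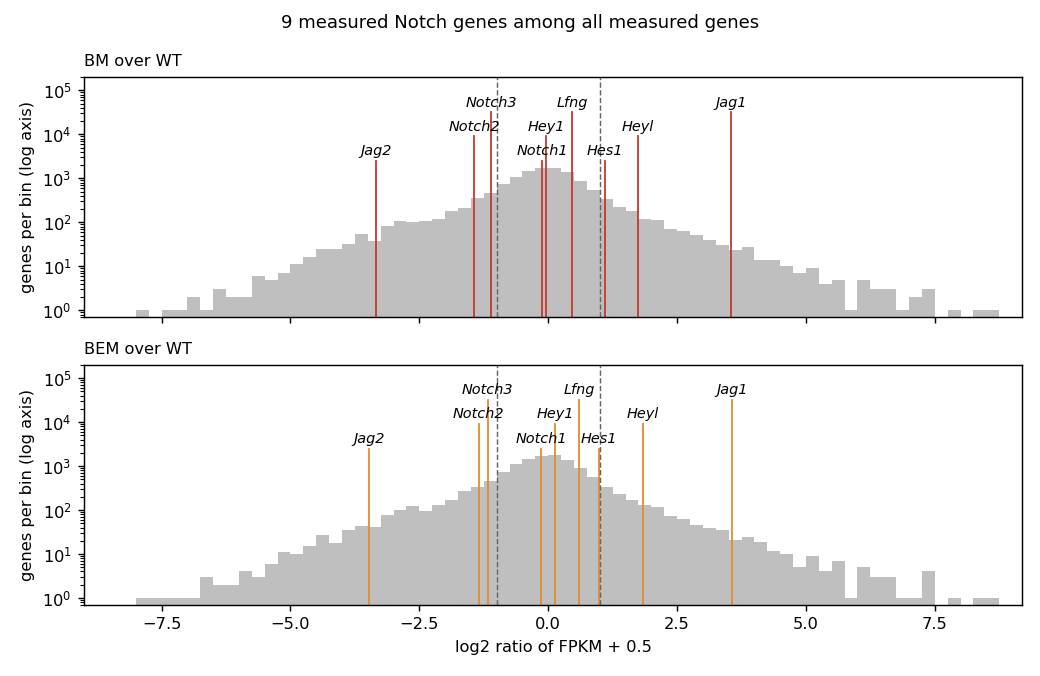
Number of measured genes per bin of the log2 ratio of FPKM + 0.5 (grey bars, log axis) for BM over WT and BEM over WT, with the 9 measured Notch genes as coloured lines and the 2-fold limits dashed. Jag2 and Jag1 stand in the lower and upper arms in both panels, and Hes1 sits at the upper limit.

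Among the receptors, Notch1 differed little between cultures and Notch2 and Notch3 were lower in both mutants. Notch1 (ENSMUSG00000026923, minus strand of chromosome 2, 26457903 to 26516663 in GRCm38) had 7.85 FPKM in BM and 7.76 FPKM in BEM, against 8.55 FPKM in WT. The ratio was 0.918 (0.867 to 0.971) for BM and 0.908 (0.860 to 0.959) for BEM. The log2(FPKM + 0.5) ratio was -0.12 in BM and -0.13 in BEM, and with upper quartile scaling -0.026 in BM and -0.039 in BEM, so the small distance from WT depends on the scaling. Genes on the opposite strand share exon bases with it, 0610009E02Rik over 7.50% of its exon length and Gm13568 over 2.91%. Whether counting used strand was not stated, so reads of such partners cannot be told apart here.

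Notch2 (ENSMUSG00000027878, plus strand of chromosome 3, 98013527 to 98150361) is a broadly expressed receptor. It had 8.14 FPKM in BM and 8.64 FPKM in BEM, against 22.8 FPKM in WT. These values rest on 1766 reads in BM and 2219 in BEM, against 5306 in WT. It was 2.80-fold lower in BM (2.66 to 2.96) and 2.64-fold lower in BEM (2.51 to 2.78). Gm42820, on the same strand, overlaps 5.02% of its exon length. In rank it lay above 55.2% of the measured genes in BM and 56.7% in BEM, against 80.9% in WT. Notch3 (ENSMUSG00000038146, minus strand of chromosome 17, 32120820 to 32166852) is the receptor known from vascular smooth muscle and pericytes. Its levels were 11.5 FPKM in BM and 11.0 FPKM in BEM, against 25.3 FPKM in WT. The fold was 2.20 lower in BM (2.09 to 2.33) and 2.31 lower in BEM (2.19 to 2.43), both intervals lying wholly above 2. With a pseudocount of 5 its log2 ratio was -0.88 in BM and -0.93 in BEM, short of the limit. The 1858 reads of BM and 2100 of BEM, against 4390 of WT, rest on a length of 8044 bases where the annotation gives 8089. A length of 12066 bases also gave whole reads, 2787 in BM and 3150 in BEM, against 6585 in WT. With it the limits of the fold were 2.11 to 2.31 in BM and 2.21 to 2.41 in BEM. The antisense gene Gm17276 overlaps 6.03% of its exon length.

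The summed level of Notch1 to Notch4 was 27.7 FPKM in BM and 27.5 FPKM in BEM, against 58.1 FPKM in WT, so the mutants lay well below WT. Notch3 was the largest contributor in each library, at 41.5% in BM and 39.8% in BEM, against 43.6% in WT. Notch1 made up 28.3% of that sum in BM and 28.2% in BEM, against 14.7% in WT. Within a library, which no scaling between libraries affects, Notch2 stood at 1.04 times Notch1 in BM (0.975 to 1.11) and 1.11 times in BEM (1.05 to 1.18), against 2.67 times in WT (2.55 to 2.80). The same held for Notch3, at 1.46 times Notch1 in BM (1.38 to 1.56) and 1.41 times in BEM (1.33 to 1.50), against 2.96 times in WT (2.82 to 3.11). Notch4, a receptor of endothelium, had 36 reads in BM and 34 in BEM, against 246 in WT. Its level was 0.222 FPKM in BM and 0.177 FPKM in BEM, against 1.42 FPKM in WT, 6.38-fold lower in BM (4.48 to 9.32) and 7.99-fold lower in BEM (5.57 to 11.8). Notch4 averaged below 1 FPKM, so it was not among the measured genes, and the authors' deposited table did not mark it significant in either mutant.

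Among the 10 genes, Jag1 and Jag2 had the largest folds, with Jag1 higher and Jag2 lower in both mutants, while Dll1 was too low to compare. Jag1 (ENSMUSG00000027276, minus strand of chromosome 2, 137081456 to 137116644) had 42.7 FPKM in BM and 43.3 FPKM in BEM, against 3.20 FPKM in WT. Both mutants stood far above WT. In reads, it had 5008 in BM and 6003 in BEM, against 402 in WT. The ratio was 13.4 in BM (12.1 to 14.8) and 13.5 in BEM (12.2 to 15.0).

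Jag2 (ENSMUSG00000002799, minus strand of chromosome 12, 112907819 to 112929776) had 0.368 FPKM in BM and 0.290 FPKM in BEM, against 8.26 FPKM in WT. Its mutant levels lay below 1 FPKM, and 22.5-fold below WT in BM (16.7 to 31.0) and 28.5-fold below WT in BEM (20.9 to 39.8). The annotated length of 6965 bases gave no whole reads, and 4 other lengths did. With the nearest, 6081 bases, Jag2 had 45 reads in BM and 42 in BEM, against 1083 in WT. Over all 4 lengths the limits of the fold ran from 15.6 to 33.5 in BM and from 19.5 to 43.2 in BEM.

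Dll1 (ENSMUSG00000014773, minus strand of chromosome 17, 15367354 to 15376872), the Delta ligand of nascent hair cells, had 12 reads in BM and 14 in BEM, against 10 in WT. Its level was 0.141 FPKM in BM and 0.139 FPKM in BEM, against 0.110 FPKM in WT. The ratio was 1.29 in BM (0.509 to 3.32) and 1.27 in BEM (0.524 to 3.19), so a difference was not detectable at this depth. A lincRNA gene on the opposite strand, A930024N18Rik, covers 20.5% of its exon length. The other Delta ligands were also near 0, Dll3 with 0 reads in BM and in BEM against 10 in WT, and Dll4 with 1 in BM and 1 in BEM against 4 in WT.

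The ligands' summed level and its make-up both differed. Jag1, Jag2 and Dll1 summed to 43.2 FPKM in BM and 43.7 FPKM in BEM, against 11.6 FPKM in WT. Jag1 held 98.8% of this sum in BM and 99.0% in BEM, against 27.7% in WT, where Jag2 held 71.4%. Within a library the ratio of Jag1 to Jag2 was 116 in BM (86.7 to 159) and 149 in BEM (110 to 207), against 0.387 in WT (0.345 to 0.435). These intervals use the Jag2 reads at 6081 bases, 1 of the 4 lengths that gave whole reads, and their width depends on that choice.

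**Figure D3:**
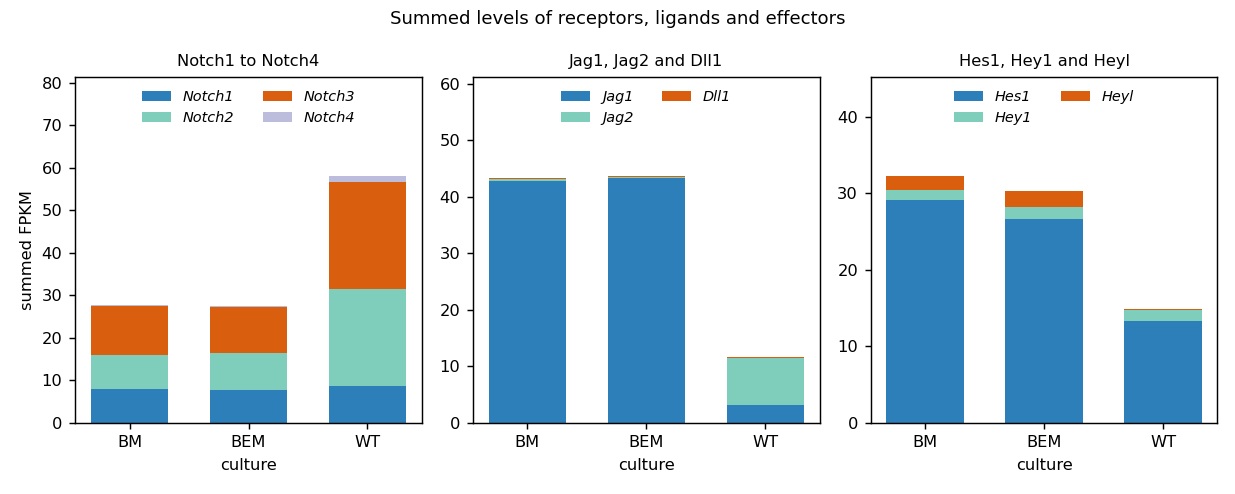
Stacked bars of summed FPKM for the receptors Notch1 to Notch4, the ligands Jag1, Jag2 and Dll1, and the effectors Hes1, Hey1 and Heyl, in BM, BEM and WT. The receptor sum is lower in the mutants (27.7 and 27.5, against 58.1 FPKM in WT), the ligand sum is higher and almost all Jag1, and the effector sum is higher and mostly Hes1.

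Of the effectors, Heyl and Hes1 were higher in the mutants and Hey1 lay close to WT. Hes1 (ENSMUSG00000022528, plus strand of chromosome 16, 30064384 to 30067796), the repressor that many Notch-responsive cells use, had 29.1 FPKM in BM and 26.7 FPKM in BEM, against 13.3 FPKM in WT. The reads were 1191 in BM and 1294 in BEM, against 584 in WT. The ratio was 2.19 in BM (1.98 to 2.42) and 2.01 in BEM (1.82 to 2.22). On the log2(FPKM + 0.5) scale this was 1.10 in BM and 0.98 in BEM, on either side of the 2-fold limit of 1. With median-of-ratios or upper quartile scaling, or with the ratios of the authors' deposited table, BEM passed that limit as well.

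Heyl (ENSMUSG00000032744, plus strand of chromosome 4, 123233556 to 123249875), a Hey-family repressor found in vascular smooth muscle, had 1.85 FPKM in BM and 1.99 FPKM in BEM, against 0.200 FPKM in WT. In reads this was 190 in BM and 242 in BEM, against 22 in WT. The ratio was 9.26 in BM (5.94 to 15.1) and 9.96 in BEM (6.43 to 16.2). Its level was near 2 FPKM in the mutants, and with a pseudocount of 5 the log2 ratio was 0.40 in BM and 0.43 in BEM, short of the limit.

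Hey1 (ENSMUSG00000040289, minus strand of chromosome 3, 8663359 to 8667256) had 1.37 FPKM in BM and 1.61 FPKM in BEM, against 1.42 FPKM in WT. The ratio was 0.965 in BM (0.717 to 1.30) and 1.13 in BEM (0.863 to 1.49), so no difference was detectable at 90 to 125 reads per library. Heyl stood at 1.35 times Hey1 in BM (1.04 to 1.75) and 1.24 times in BEM (0.992 to 1.55), against 0.140 times in WT (0.0843 to 0.225). Hes1, Hey1 and Heyl summed to 32.3 FPKM in BM and 30.3 FPKM in BEM, against 14.9 FPKM in WT, and Hes1 held 88.1% to 90.0% of the sum in each library. Hey2, outside the 10 genes and below the filter, had 66 reads in BM and 90 in BEM, against 10 in WT. Hes5, the effector typical of supporting cells, had 2 reads in BM and 0 in BEM, against 0 in WT, and the feedback inhibitor Nrarp had 6 in BM and 7 in BEM, against 2 in WT.

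Lfng (ENSMUSG00000029570, plus strand of chromosome 5, 140607320 to 140615545), the Fringe glycosyltransferase that adds a sugar to Notch and shifts its response towards Delta ligands, was somewhat higher in the mutants. It had 2.56 FPKM in BM and 2.87 FPKM in BEM, against 1.72 FPKM in WT. In reads it had 129 in BM and 171 in BEM, against 93 in WT. The ratio was 1.49 in BM (1.13 to 1.96) and 1.66 in BEM (1.29 to 2.17), short of 2-fold. Both other Fringe genes were lower in the mutants, by less than 2-fold on the log2(FPKM + 0.5) scale. Mfng, below the filter, had 0.420 FPKM in BM and 0.325 FPKM in BEM, against 1.01 FPKM in WT. Without the added 0.5 it was 2.41-fold lower in BM (1.48 to 4.04) and 3.11-fold lower in BEM (1.89 to 5.32). Rfng had 11.4 FPKM in BM and 10.1 FPKM in BEM, against 13.8 FPKM in WT. Rfng made up 79.3% of the Fringe sum in BM and 76.1% in BEM, against 83.5% in WT, and Lfng 17.8% in BM and 21.5% in BEM, against 10.4% in WT.

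**Figure D4:**
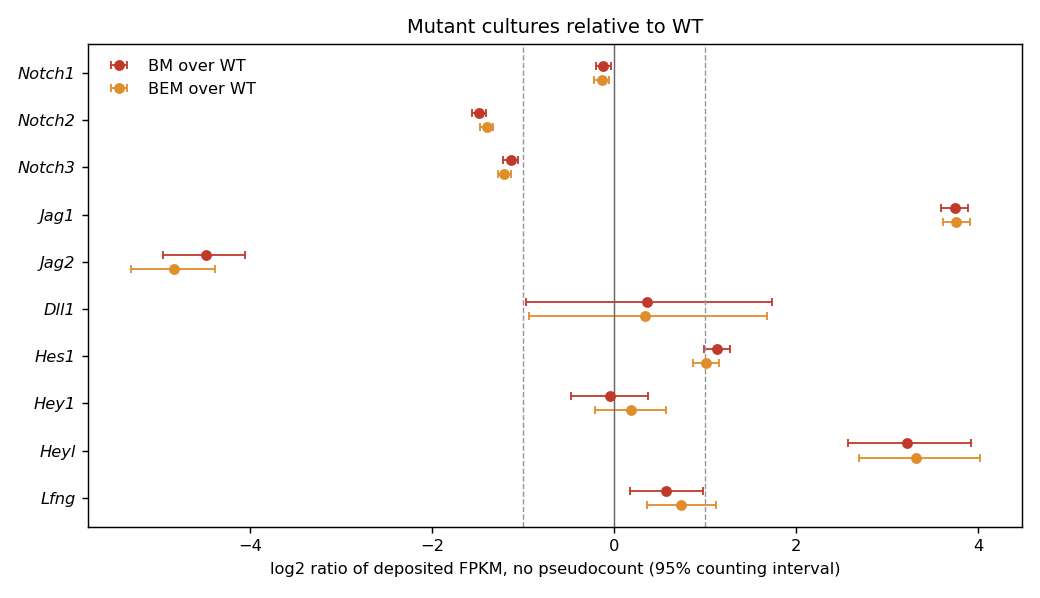
Log2 ratio of the deposited FPKM, without pseudocount, for BM over WT and BEM over WT, with bars for the 95% counting interval and dashed lines at 2-fold. Jag1, Heyl and Hes1 lie above 0 and Jag2, Notch2 and Notch3 below it in both mutants, while the intervals of Dll1 and Hey1 include 0.

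In the authors' deposited table, Jag1, Jag2 and Heyl were marked significant in both comparisons with WT, where 3.26% of the 47725 genes were marked for BM and 3.44% for BEM. The authors' deposited table gave Jag1 a log2 ratio of 3.70 for BM and 3.72 for BEM, Jag2 -4.16 for BM and -4.42 for BEM, and Heyl 2.70 for BM and 2.80 for BEM. In the authors' deposited table the FDR for BM was 0.00428 for Jag1, 0.00196 for Jag2 and 0.0214 for Heyl, while Hes1 (0.675), Notch2 (0.625) and Notch3 (0.849) were not marked. In the authors' deposited table the FDR for BEM was 0.00408 for Jag1, 0.000803 for Jag2 and 0.0167 for Heyl, while Hes1 (0.752), Notch2 (0.677) and Notch3 (0.797) were not marked. The way those p-values were made without replicates was not stated.

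Between the mutants, no member was 2-fold apart. Of all measured genes, 0.458% were called higher and 0.326% lower in BEM than in BM. The ratio of BEM over BM ran from 0.788 for Jag2 (0.505 to 1.23) to 1.17 for Hey1 (0.887 to 1.56). Only Hes1, at 0.918 (0.848 to 0.994), had a counting interval that excluded 1 among the 9 measured members. For Jag1 the interval was narrow, 1.01 (0.975 to 1.05).

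The wider Notch pathway list held 48 other genes, of which 37 were measured. In BM 2 were called higher and 8 lower than in WT, and in BEM 0 were called higher and 8 lower, the same 8 genes. Over all measured genes, 10.5% were higher and 15.3% lower in BM, and 10.7% higher and 15.3% lower in BEM. The list's median log2 ratio was -0.38 in BM and -0.35 in BEM, beside -0.08 in BM and -0.07 in BEM over all measured genes. The 8 lower genes were Rbpj, Maml3, Dtx1, Dtx4, Neurl1a, Dlk1, Hes6 and Bhlhe40. Of these, Dtx1 and Maml3 passed the filter on low values through WT alone, so their calls follow in part from it.

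In the nuclear complex, Rbpj, the DNA-binding partner of the Notch intracellular domain, had 8.35 FPKM in BM and 8.17 FPKM in BEM, against 28.2 FPKM in WT. It was 3.37-fold lower in BM (3.21 to 3.54) and 3.45-fold lower in BEM (3.29 to 3.61). The coactivator Maml3 had 0.403 FPKM in BM and 0.348 FPKM in BEM, against 4.17 FPKM in WT, 10.3-fold lower in BM (8.28 to 13.1) and 12.0-fold lower in BEM (9.60 to 15.1). The other Mastermind genes were within 2-fold.

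All 9 proteases, among them Adam10, Adam17 and the gamma-secretase subunits, were within 2-fold of WT in both mutants on the log2(FPKM + 0.5) scale, with ratios from -0.95 to 0.60 in BM and from -0.85 to 0.58 in BEM. Most genes were within 2-fold too, 9549 of the 12875 measured in BM and 9536 in BEM. The lowest protease ratio was that of the gamma-secretase subunit gene Aph1b, which had 1.70 FPKM in BM and 1.86 FPKM in BEM, against 3.76 FPKM in WT. Without the added 0.5, Aph1b was 2.21-fold lower in BM (1.85 to 2.65) and 2.02-fold lower in BEM (1.72 to 2.39). Of 11 measured genes for endocytosis and turnover, 3 were lower and 0 higher in each mutant. Over all measured genes, 15.3% were lower in each mutant, and 10.5% were higher in BM and 10.7% in BEM. Of the 3 lower genes, Dtx1 passed the filter through WT alone. The Deltex ubiquitin ligase gene Dtx1, itself a known Notch target, had 6 reads in BM and 9 in BEM, against 862 in WT, which was 134-fold lower in BM (61.3 to 366) and 106-fold lower in BEM (55.5 to 232). Its relative Dtx4 had 4.24 FPKM in BM and 4.65 FPKM in BEM, against 21.5 FPKM in WT. Neurl1a, a ubiquitin ligase that promotes ligand endocytosis, had 3.72 FPKM in BM and 3.85 FPKM in BEM, against 14.2 FPKM in WT. The reads of Dtx4 and Neurl1a rest on lengths other than the annotated ones.

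Dlk1, an imprinted Delta-like gene without the domain that binds Notch in the canonical ligands, had 44.5 FPKM in BM and 44.5 FPKM in BEM, against 791 FPKM in WT, which was 17.8-fold lower in each mutant (17.3 to 18.3 in both). Hes6, an antagonist of Hes1, had 7.89 FPKM in BM and 8.87 FPKM in BEM, against 22.0 FPKM in WT. Bhlhe40, a related repressor of hypoxia and clock responses, had 16.2 FPKM in BM and 16.5 FPKM in BEM, against 35.9 FPKM in WT. Poglut1, which adds glucose to the receptor's EGF repeats, had 11.1 FPKM in BM and 10.3 FPKM in BEM, against 5.29 FPKM in WT, and was called higher in BM only. Dtx1, Dlk1 and Maml3 were the list genes marked significant in the authors' deposited table, in both mutants.

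**Figure D5:**
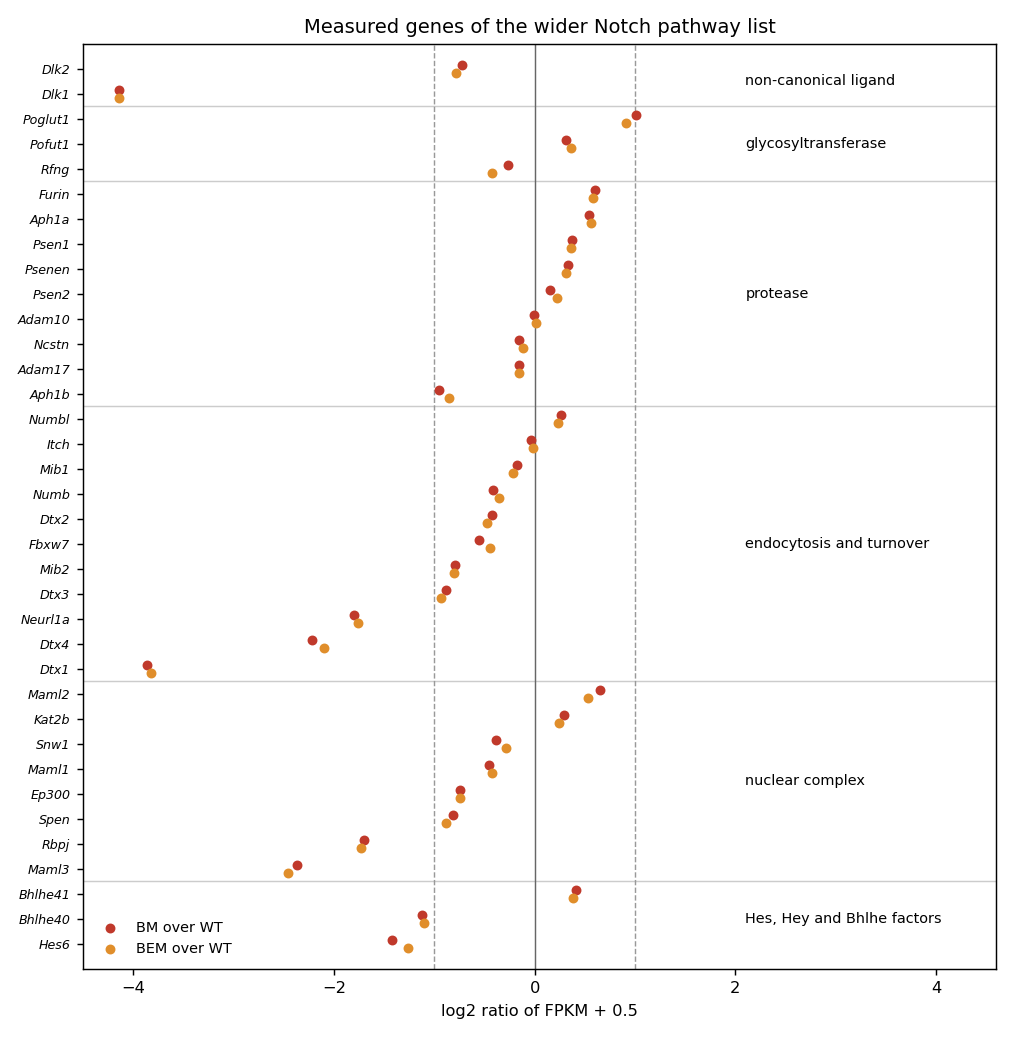
Log2 ratio of FPKM + 0.5 over WT for the measured genes of the wider list, 1 left out, by role, with dashed lines at 2-fold. The proteases lie between the lines, while Dlk1, Dtx1, Dtx4, Neurl1a, Maml3, Rbpj, Hes6 and Bhlhe40 lie to the left in both mutants.

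Markers of other cell types differed along with the members. Beside the counts of markers called, 10.5% of all measured genes were higher and 15.3% lower in BM, with 10.7% and 15.3% in BEM. The 10 smooth muscle and pericyte markers summed to 3927 FPKM in BM and 3965 FPKM in BEM, against 124 FPKM in WT, with 8 called higher and 1 lower in each mutant and none at 0. Of the higher ones, 3 passed the filter through the mutant libraries alone, and the lower one through WT alone. They were led by Acta2, smooth muscle actin, and Tagln, a calponin-family protein, while Rgs5, a pericyte gene, was lower at 0.252 FPKM in BM and 0.203 FPKM in BEM against 4.50 FPKM in WT. Heyl and Jag1, both known in smooth muscle, were higher along with that list and also along with the macrophage list below, and Notch3 was lower. Which cells held their RNA was not tested. The 10 macrophage markers, led by Lyz2 and C1qa, summed to 1809 FPKM in BM and 1857 FPKM in BEM, against 13.1 FPKM in WT, where C1qa and Itgam were at 0. All 9 measured macrophage markers were called higher in each mutant, but 7 of them passed the filter through the mutant libraries alone, which fixes part of that count.

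The 9 endothelial markers, led by Kdr and Egfl7, summed to 3.50 FPKM in BM and 3.52 FPKM in BEM, against 6.58 FPKM in WT. Of 2 measured, 1, Egfl7, was lower, and it passed the filter through WT alone. Sox17 was at 0 in both mutants, but had only 1 read in WT, and Tie1 was at 0 in BM. The list was mixed. Kdr had 2.02 FPKM in BM and 1.80 FPKM in BEM, against 1.28 FPKM in WT. Egfl7 had 0.597 FPKM in BM and 0.833 FPKM in BEM, against 2.75 FPKM in WT. Below the filter, Tek and Erg had higher values in both mutants than in WT, and Pecam1, Cdh5, Tie1 and Emcn lower ones. The 8 supporting cell markers, led by Sparcl1 and Sox9, summed to 25.3 FPKM in BM and 25.4 FPKM in BEM, against 321 FPKM in WT. Sparcl1 alone gave 5.57 FPKM of that sum in BM and 5.68 FPKM in BEM, against 286 FPKM in WT. Of 5 measured, 3 were lower in each mutant and 1, Lgr5, was higher, at 5.91 FPKM in BM and 6.33 FPKM in BEM, against 0.0316 FPKM in WT. Lgr5 passed the filter through the mutant libraries alone and Sox2, among the lower ones, through WT alone, which fixes part of these counts. Hes5 was at 0 in BEM and WT.

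The 10 hair cell markers summed to 249 FPKM in BM and 253 FPKM in BEM, against 277 FPKM in WT, nearly all of it Atoh1. Of 4 measured, 1, Myo7a, was higher and 1, Espn, lower. Myo7a passed the filter through the mutant libraries alone and Espn through WT alone, so both calls follow in part from it. The 7 fibroblast markers, led by Col1a1 and Col1a2, summed to 4830 FPKM in BM and 4718 FPKM in BEM, against 2367 FPKM in WT. In each mutant 3 were called higher (Col1a1, Col1a2 and Thy1) and 0 lower. Within 2-fold, Lum was higher than in WT, and Col3a1, Dcn and Pdgfra were lower. Pdgfra, at 25.9 FPKM in BM and 26.0 FPKM in BEM against 51.0 FPKM in WT, was close to the limit. Epithelial markers, led by Krt18 and Krt19, summed to 7.66 FPKM in BM and 7.99 FPKM in BEM, against 33.3 FPKM in WT. Of 3 measured, 2 were lower, Krt8 and Krt18. Krt18 alone gave 3.76 FPKM of the sum in BM and 3.93 FPKM in BEM, against 27.2 FPKM in WT. Krt19 had 2.73 FPKM in BM and 3.17 FPKM in BEM, against 2.05 FPKM in WT. The 6 neuronal markers, led by Tubb3 and Nefm, summed to 11.6 FPKM in BM and 11.0 FPKM in BEM, against 10.7 FPKM in WT, with 2 of 4 measured higher and 1 lower. The higher ones, Tubb3 and Map2, passed the filter through the mutant libraries alone and the lower one, Nefm, through WT alone, so these calls follow in part from it. The part of these cell types in the Notch gene differences was not tested.

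Genes with the most similar pattern were sought among 11440 measured genes other than the members, predicted and clone symbols left out, by Euclidean distance of centred log2(FPKM + 0.5) over the 3 libraries. For Jag1 these were Nckap1l, Lcp1 and Cd68, at distances of 0.0109, 0.0145 and 0.0354 log2 units. For Jag2 they were Mcpt8 (0.0103), Pde9a (0.0281) and Spon1 (0.0345). For Notch3 they were Dchs1 (0.00269), March6 (0.00584) and Herc3 (0.00632), and for Heyl Mea1 (0.00423), S1pr1 (0.0106) and Iqgap3 (0.0165). BM lay close to BEM for these members, so the match rests mostly on 1 contrast with WT, and shared control was not tested. The added 0.5 narrows folds of low genes. Mea1, at 63.0 FPKM in BM and 66.5 FPKM in BEM against 18.4 FPKM in WT, had a smaller fold than Heyl. Pde9a, at 0.0702 FPKM in BM and 0.0296 FPKM in BEM against 5.22 FPKM in WT, had a larger one than Jag2.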

How the data were processed

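RNA from 3 cultures, with 1 library each, was measured by sequencing after oligo-dT enrichment. The deposited values were FPKM in 3 pairwise tables, per the file headers. A log2 ratio, a p-value and an FDR for each gene were deposited beside them. The submitters' processing notes list GRCm38 as build and TopHat2, HTSeq and edgeR as tools, without saying what each did. Strand use in counting was not stated there.

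The members and lists were chosen with earlier results of these data known. Named genes were the 10 members, list genes 2-fold apart from WT, 9 further pathway genes, 2 leading markers of each cell type list and, for 4 members, the 3 nearest genes. Other markers were chosen after their values were seen. They were named for being at or near 0, for differing from the rest of their list, for how they passed the filter or to show which way a list's markers went.

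Measured genes (12875) averaged 1 FPKM or more over the libraries, and log2(FPKM + 0.5) was compared without further scaling. No counts were found in the tables, so whole reads were recovered by finding the library total, and then a length within 0.5 to 1.5 times the exon length in GENCODE M21, at which every library's value came to a whole number (tolerance 0.0001). This worked for 12799 measured genes, 72.0% of measured genes at the annotated length itself. These reads gave 95% Clopper-Pearson intervals of ratios, which cover counting error only. Scripts were tested on simulated data. The alternatives were a pseudocount of 5, no filter or a mean of 10 FPKM, median-of-ratios and upper quartile scaling, the authors' ratios and a threshold on the counting interval. Python 3.11.15, pandas 2.3.3, numpy 2.4.6, scipy 1.17.1 and matplotlib 3.10.9 were used. Gene symbols that the tables gave as a date were read from the annotation by identifier. For 1 gene of the pathway list, values are not reported here, though the list's counts include it.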

Additional observations from a re-analysis of the deposited data

How the results depend on the processing

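Of 56 recomputed counts against WT, 45 stayed within 1.5 times the count reported, and all 28 of BEM over BM were 0, as reported. With a pseudocount of 5, members called higher numbered 1 in BM and 1 in BEM, pathway list genes called higher 0 in BM, and those called lower 5 in BEM. With a mean of at least 10 FPKM, members called higher numbered 1 in BEM, and list genes 1 higher in BM and 5 lower in BM and 5 lower in BEM, where fewer genes are tested. List genes called higher in BEM numbered 1 with no filter (Hey2), 1 with median-of-ratios scaling and 1 with upper quartile scaling. No ratio of a member past 2-fold changed sign under the alternatives run for it. Notch3 was short of 2-fold with a pseudocount of 5, at a log2 ratio of -0.88 in BM and -0.93 in BEM. Upper quartile scaling moved log2 ratios against WT up by at most 0.097 in each mutant. No paired analysis was possible because each line had 1 library, and no replicate could be left out. The 10 to 22 reads of Dll1 in any library and of Heyl in WT limit how finely they can be compared.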
